A study of Homo sapiens with 6 samples.

Results

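The genes described here are 10 targets of the transcription factor NF-kB that act in adhesion, signalling, survival, redox balance and gene control, namely ICAM1, VCAM1, TRAF1, TNIP1, IER3, CFLAR, SOD2, IRF1, CD83 and TNFAIP2. They were picked by symbol, leaving aside chemokines and feedback inhibitors other than TNIP1. ICAM1 was chosen for its higher level in the si-NEAT1_2 libraries, so its difference between the groups is a description and carries no test. The 10 symbols matched 11 rows of 19684 Ensembl genes, because SOD2 is listed under a main identifier (ENSG00000112096) and under an overlapping one (ENSG00000285441). Of the 11 rows, 9 had enough counts to be compared between the groups. VCAM1 and the second SOD2 row did not.

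The mRNA was sequenced from K1 cells, an established human papillary thyroid carcinoma line, 3 libraries after transfection with a negative control siRNA (NC) and 3 after transfection with si-NEAT1_2, an siRNA against the long isoform of the lncRNA NEAT1. Both groups were transfected, carried no other labelled change and had no labelled dose or time. NEAT1 itself was not analysed here, and how far it was knocked down in these libraries is therefore unknown, so that grouping rests on the labels. The libraries held between 22798631 and 27066025 counts, and the authors also deposited a table with a single value per group.

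NF-kB is a family of dimers that wait in the cytoplasm bound to inhibitor proteins. Signals from TNF, interleukin 1 or Toll-like receptors pass through TRAF adaptors to the IKK kinase, which marks the inhibitors for destruction, and the freed dimers enter the nucleus and bind promoters at kB sites. Among the genes switched on are adhesion molecules that hold leukocytes, proteins that block cell death, and proteins that shut the signal down again, and in thyroid cancer cells this pathway is known for its link to survival and invasion.

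The kB letters of the promoters are shown first as the feature that gives NF-kB targets their name. The genes were chosen as NF-kB targets, a status that goes with such letters, so their share is a description of the chosen genes and supports nothing. In the RefSeq promoter table (GRCh38.p14, windows of 300 bases, from 250 before to 50 after a start), 9 of the 10 genes had 19 windows, and IER3 had no entry. The motif GGNNNTTCC, a short form of the kB site searched on both strands, was found in 8 of these 19 windows and in 20.1% of all 35116 windows. It was present in at least 1 window of ICAM1, VCAM1, TRAF1, TNIP1, CFLAR, CD83 and TNFAIP2, and in no window of IRF1 or SOD2. A match is a property of the letters and measures no binding, and a window without a match says only that these letters are not in it.
A match of 7 genes is printed with 10 bases on each side, 5′ to 3′ on the strand of the gene, with GGNNNTTCC on either strand in capitals.
ICAM1: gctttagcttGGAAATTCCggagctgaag
VCAM1: tccccttgaaGGGATTTCCctccgcctct
TNIP1: cagtctccggGGACTTTCCcaggggtggg
TRAF1: gatttcatcaGGGCTTTCCtgctccttct
CFLAR: gcggggggcgGGGAATTCCgcagacagga
CD83: tggcgcgcagGGAAGTTCCcgaacgcgcg
TNFAIP2: ctccgcccgcGGGTTTTCCgcggttgcgg
The ICAM1 match (chr19:10270934-10270942) reads the same motif on both strands and begins 186 bases before the RefSeq start. In GENCODE release 29 the stretch printed, chr19:10270924-10270952, is an exon, in the 5′ UTR, of a transcript that starts further upstream. The VCAM1 stretch (chr1:100719670-100719698, match 62 bases before the start) and the TNFAIP2 stretch (chr14:103123354-103123382, 97 bases before) lie upstream of the annotated genes. The stretches of TNIP1 (chr5:151081057-151081085, minus strand, 41 bases before), CFLAR (chr2:201118610-201118638, 96 bases before) and CD83 (chr6:14117712-14117740, 50 bases before) lie upstream of 1 start and in a 5′ UTR exon of another transcript. The TRAF1 match (chr9:120926778-120926786, minus strand) begins 10 bases after its start, and the stretch printed (chr9:120926768-120926796) is in a 5′ UTR exon.

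The labelled cell type was checked by its markers. The epithelial keratins KRT8 and KRT18 were high, at 1149 to 1586 and 391 to 579 FPKM, as was the thyroid transcription factor PAX8 at 113 to 169 FPKM. Other defining markers were low: NKX2-1 had at most 3 counts per library, TSHR at most 0.08 FPKM and CDH1 at most 0.38 FPKM. CD83 and the adhesion genes are also known from leukocytes and endothelium. Of 8 leukocyte markers, only LAPTM5 passed 1 FPKM in any library, CD3E and CD53 had at most 3 counts, and the summed level was 3.04 to 3.66 FPKM in NC and 3.63 to 3.67 in si-NEAT1_2 libraries. The 5 endothelial markers summed to 0.14 to 0.21 FPKM in NC and 0.11 to 0.23 in si-NEAT1_2 libraries, KDR having at most 3 counts. The 5 fibroblast markers summed to 24.9 to 29.4 FPKM in NC and 19.2 to 22.2 in si-NEAT1_2 libraries, mostly LUM, and were lower where most of the 10 genes were higher. The part of fibroblast marker levels in the results was not tested.

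The 10 genes differed widely in level. By FPKM, which is scaled for length, the order of the means over the 6 libraries was TNIP1 (144), IER3 (111), SOD2 (76.7), TNFAIP2 (46.0), CFLAR (25.6), IRF1 (20.6), ICAM1 (10.1), TRAF1 (4.39), CD83 (1.99) and VCAM1 (0.0333). TNIP1 ranked 570 among 19684 genes and IER3 773, whereas ICAM1 ranked 5945 and TRAF1 8441. The ranges of neighbours overlapped for TNIP1 and IER3 (124.93 to 168.39 and 97.7 to 128.97 FPKM) and for CFLAR and IRF1 (22.66 to 29.1 and 16.69 to 23.57 FPKM). TRAF1 (2.88 to 5.99 FPKM) overlapped CD83 (1.08 to 3 FPKM) and lay just under ICAM1 (6.04 to 15.63 FPKM), and all other neighbours were apart in every library.

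Compared with the NC group, 8 of the 9 genes tested had a positive log2 fold change in the si-NEAT1_2 group, with a median of 0.34, or 0.31 without ICAM1, beside 0.01 over all genes. ICAM1, TRAF1 and CD83 showed the largest differences, between 1.73-fold and 1.93-fold. IRF1, TNIP1, IER3 and TNFAIP2 were higher by 1.20-fold to 1.35-fold, SOD2 differed least, and CFLAR was the gene with the lower mean. None of the 8 other than ICAM1 passed a fold change of at least 2 with an adjusted p under 0.05, and neither did any of the 13109 genes tested (0% higher and 0% lower) in edgeR's quasi-likelihood test, with p-values adjusted by Benjamini-Hochberg over all of them. DESeq2 called 15 genes higher and 45 lower, none of them among these 8. At an unadjusted p under 0.05, 5 of the 8 tested genes other than ICAM1 were higher and 0 lower, namely TRAF1, CD83, IRF1, TNIP1 and IER3, where 11.2% of all genes were higher and 12.9% lower. This count was 3 when NC replicate 3 was left out (7.03% of all genes higher in that fit) and 2 when NC replicate 1 (6.78%), NC replicate 2 (4.0%) or else si-NEAT1_2 replicate 3 (8.58%) was. It was also 2 on the authors' FPKM values with a pseudocount of 1 (8.17%). In 6 of the 9 genes every si-NEAT1_2 library lay above every NC library (15.4% of all genes), 5 of them not counting ICAM1, and in 1 gene below (14.1% of all genes). In RNA from a whole culture, a higher level per cell and more cells with a high level cannot be told apart.

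**Figure D1:**
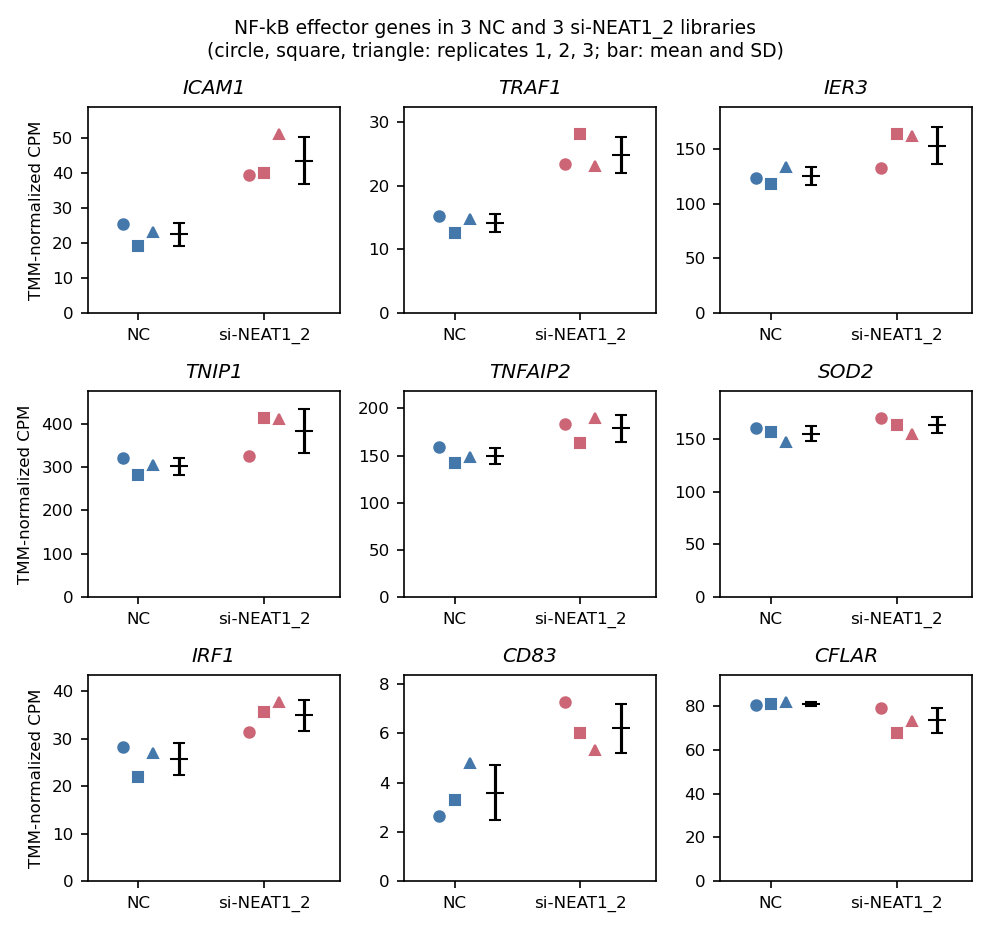
CPM after TMM scaling (y axes, linear, from 0) of the 9 genes tested in each of 3 NC and 3 si-NEAT1_2 libraries, with the mean and SD of each group beside the points. ICAM1 and TRAF1 show a gap between the groups that is wide for their level (0.63 and 0.60 on the log2 scale). The gap of CD83 is narrower, at 0.15, and the groups of SOD2 and IER3 overlap.

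ICAM1 (ENSG00000090339), the surface ligand of leukocyte integrins, lies on the plus strand of GRCh38 at chr19:10270835-10286615. It was at 25.5, 19.0 and 23.0 CPM (counts scaled to library size, with TMM factors) in NC replicates 1 to 3 and at 39.4, 39.9 and 51.1 CPM in si-NEAT1_2 replicates 1 to 3. The groups were far apart: the lowest si-NEAT1_2 library was 0.63 above the highest NC library on the log2 scale. The means were 22.5 ± 3.28 and 43.5 ± 6.65 CPM (SD, n = 3 each), a 1.93-fold difference with a log2 fold change of 0.95 (SE 0.17). Expected counts were 699, 448 and 594 in NC and 968, 949 and 1278 in si-NEAT1_2 libraries, so counting error was small. Over 16 alternative fits of the same libraries the log2 fold change stayed between 0.75 and 1.03. As ICAM1 was chosen for this rise, the range is a description and supports nothing.

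VCAM1 (ENSG00000162692, chr1:100719742-100739045), the partner of ICAM1 on activated endothelium and the ligand of another leukocyte integrin, was close to absent. Its libraries held 2, 7 and 1 counts in NC and 1, 1 and 0 counts in si-NEAT1_2 replicates. The two-sided exact permutation test gave p = 0.30. With 3 libraries per group its smallest possible p is 0.10, so it could not detect a difference at any depth, and no conclusion is drawn from it. The kB match printed above for its promoter was thus beside a gene with 0 to 7 counts per library.

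TRAF1 (ENSG00000056558, chr9:120902393-120929173, minus strand) encodes an adaptor of TNF receptors that is itself induced by NF-kB. Its NC libraries were at 15.2, 12.5 and 14.7 CPM and its si-NEAT1_2 libraries at 23.3, 28.1 and 23.0 CPM. All si-NEAT1_2 libraries were higher, the gap between the groups being 0.60 on the log2 scale. The means were 14.1 ± 1.46 and 24.8 ± 2.85 CPM (SD, n = 3), a log2 fold change of 0.81 (SE 0.16). The adjusted p was 0.170 with edgeR's quasi-likelihood test (unadjusted 0.000315), and it ranged over the alternatives from 0.0035 with DESeq2 to 0.557 without NC replicate 2. It was 0.0493 without si-NEAT1_2 replicate 1.

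TNIP1 (ENSG00000145901, chr5:151029945-151093577, minus strand), an ubiquitin-binding protein that works with the deubiquitinase A20 to restrain NF-kB, was the most abundant of the 10. Its values were 321, 281 and 304 CPM in NC and 325, 414 and 411 CPM in si-NEAT1_2 libraries. The groups were separated by a narrow margin, since si-NEAT1_2 replicate 1 was level with NC replicate 1. The means were 302 ± 20.2 and 383 ± 50.7 CPM (SD, n = 3), a log2 fold change of 0.34 (SE 0.14, adjusted p = 0.179, edgeR's quasi-likelihood test).

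Of the genes of cell survival, neither passed the test. IER3 (ENSG00000137331, chr6:30743199-30744554, minus strand), an early response gene that modulates apoptosis, was at 124, 118 and 134 CPM in NC and 133, 164 and 162 CPM in si-NEAT1_2 libraries. Its groups overlapped, because si-NEAT1_2 replicate 1 lay just below NC replicate 3, and its log2 fold change was 0.28 (SE 0.13, adjusted p = 0.205, edgeR's quasi-likelihood test). CFLAR (ENSG00000003402, chr2:201116104-201176687), which encodes c-FLIP, the inhibitor of caspase activation at death receptors, was at 80.4, 80.8 and 82.0 CPM in NC and 79.2, 67.8 and 73.4 CPM in si-NEAT1_2 libraries. Every si-NEAT1_2 library was lower, replicate 1 only slightly, for a log2 fold change of -0.14 (SE 0.12, adjusted p = 0.462, edgeR's quasi-likelihood test). In FPKM the CFLAR groups overlapped, si-NEAT1_2 replicate 1 having the highest value of the 6 libraries at 29.1.

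SOD2 (chr6:159669057-159745186, minus strand), the mitochondrial superoxide dismutase and a classical NF-kB target, barely differed. It was at 160, 157 and 147 CPM in NC and 170, 163 and 155 CPM in si-NEAT1_2 libraries, with overlapping groups. The means were 155 ± 7.25 and 163 ± 7.65 CPM (SD, n = 3), and the log2 fold change was 0.07 (SE 0.12, adjusted p = 0.703, edgeR's quasi-likelihood test). The second SOD2 row overlaps this gene, so reads could be split between them, but it held 0 counts in 5 libraries and 3.76 in si-NEAT1_2 replicate 1.

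IRF1 (ENSG00000125347, chr5:132481609-132490798, minus strand), the transcription factor that drives interferon response and antigen presentation genes, was at 28.3, 21.9 and 27.1 CPM in NC and 31.4, 35.7 and 37.8 CPM in si-NEAT1_2 libraries. All si-NEAT1_2 libraries were above all NC libraries, with means of 25.8 ± 3.40 and 35.0 ± 3.30 CPM (SD, n = 3). The log2 fold change was 0.44 (SE 0.15, adjusted p = 0.170, edgeR's quasi-likelihood test). In FPKM its groups overlapped, at 16.69 to 20.88 in NC and 19.8 to 23.57 in si-NEAT1_2 libraries.

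CD83 (ENSG00000112149, chr6:14117256-14136918), a surface protein known as a marker of mature dendritic cells, was the lowest of the genes tested and the least precise. Its expected counts were 72, 78 and 124 in NC and 179, 143 and 133 in si-NEAT1_2 replicates, or 2.63, 3.31 and 4.81 against 7.28, 6.01 and 5.32 CPM. The groups did not overlap, but NC replicate 3 and si-NEAT1_2 replicate 3 were near each other. Its log2 fold change was 0.79 (SE 0.26, adjusted p = 0.170, edgeR's quasi-likelihood test) and lay between 0.47 and 1.05 over the alternatives.

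TNFAIP2 (ENSG00000185215, chr14:103123442-103137439), a TNF-induced protein that remodels the cell membrane, was at 159, 142 and 149 CPM in NC and 184, 163 and 190 CPM in si-NEAT1_2 libraries. Its groups were separated by 0.03 on the log2 scale, and the log2 fold change was 0.26 (SE 0.12, adjusted p = 0.217, edgeR's quasi-likelihood test). Its unadjusted p was 0.0572. The FPKM values overlapped, at 40.28 to 47.09 in NC and 41.77 to 52.17 in si-NEAT1_2 libraries.

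The size of several differences moved with GC content and transcript length. When smooth trends with both were removed from each library, a step chosen only once the values were known, ICAM1, TRAF1 and CD83 kept log2 fold changes of 0.75, 0.82 and 0.69 with the length of the longest transcript, and of 0.82, 0.82 and 0.80 with the length implied by the FPKM values. TNIP1 was at 0.08 and 0.09 in these fits, TNFAIP2 at 0.09 and 0.11, and IER3 turned to -0.13 and -0.09. The other genes depended on which length was used. IRF1 was at 0.41 with the longest transcript, of 5153 bases, and at 0.11 with the implied length of 1468 bases. SOD2 was at 0.58 and 0.13, its longest transcript having 14266 bases and its implied length 2068. CFLAR was at 0.27 and -0.14, with 14672 and 3021 bases. ICAM1 has nearly the same length either way, 3252 and 3238 bases. The part of GC content and length in each single gene's difference was not tested.

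**Figure D2:**
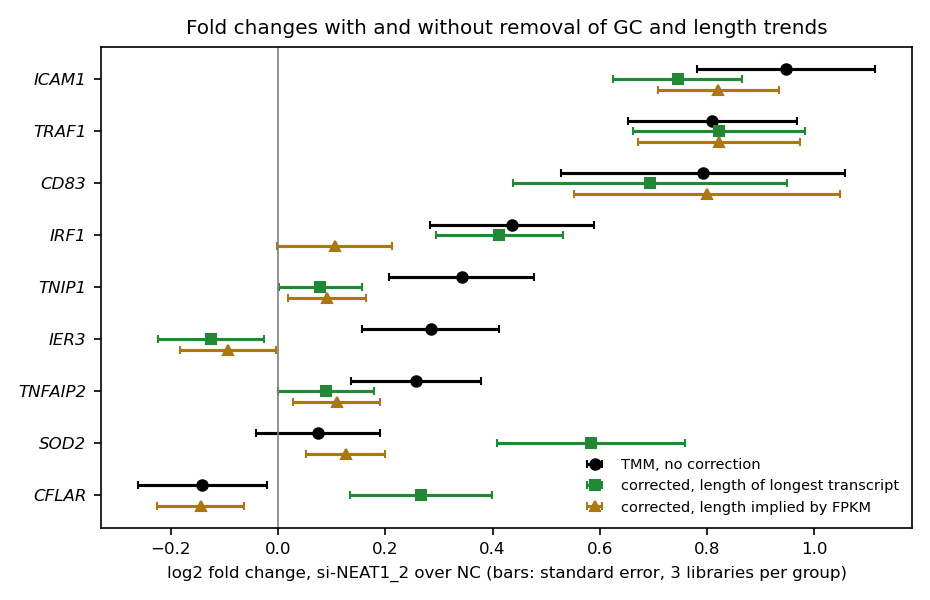
Log2 fold change of si-NEAT1_2 over NC (x axis) for the 9 genes tested, with bars for the standard error and 3 libraries per group, for TMM scaling alone and for the fits that also removed GC and length trends. ICAM1, TRAF1 and CD83 stay between 0.69 and 0.95 in all 3 fits, IER3 lies on both sides of 0, and SOD2 and CFLAR shift to the right with the length of the longest transcript.

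The labels carry a library code (L2, L3 or L4) whose meaning they do not give. Code L4 held si-NEAT1_2 replicate 1 alone. Within L2 (2 NC and 1 si-NEAT1_2 libraries) and L3 (1 of each), with no test, ICAM1 differed by 0.93 and 1.001 on the log2 scale, TRAF1 by 1.05 and 0.59, CD83 by 0.58 and 0.997, and IRF1 by 0.55 and 0.42. TNIP1 differed by 0.50 and 0.36, IER3 by 0.38 and 0.38, TNFAIP2 by 0.16 and 0.26, and CFLAR by -0.26 and -0.13. SOD2 differed by 0.11 and -0.05. All of these genes except SOD2 thus had the same sign within both codes as over all 6 libraries.

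The pattern of ICAM1 across the 6 libraries was compared with that of 9569 genes whose average log2 CPM reached 3, as a description, since the 6 points share the groups and the scaling. The 5 most alike were ITGB5 (Pearson's r 0.996), SEMA4B (0.996), SLC43A3 (0.995), TAPBP (0.991) and CTSS (0.991). IRF1 was the nearest of the other genes described here, with r 0.957 and rank 77. It was followed by TNFAIP2 (0.928), TRAF1 (0.917), TNIP1 (0.880) and IER3 (0.846), whereas CD83 (0.693) and SOD2 (0.395) were further away and CFLAR was inverse at -0.70. CD83, with an average log2 CPM of 2.31, was not itself among the 9569 genes.

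**Figure D3:**
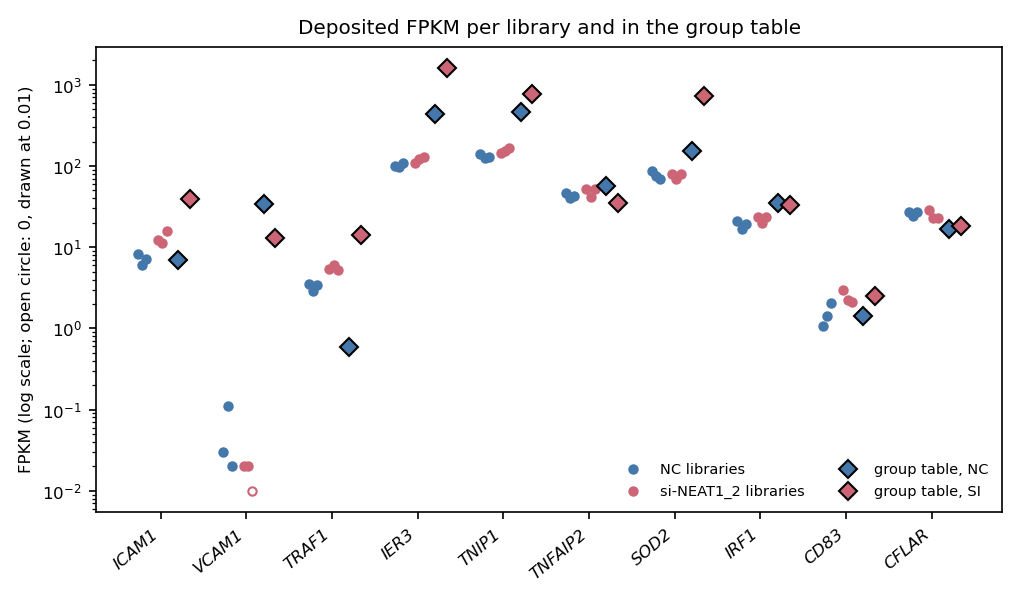
FPKM on a log axis for the 10 genes in the 3 NC and 3 si-NEAT1_2 libraries (circles, an open circle marking a value of 0) and in the NC and SI columns of the authors' group table (diamonds). The group values of ICAM1 and CD83 in NC lie within the NC libraries, while those of VCAM1, IER3, TNIP1, SOD2 and TRAF1 lie far from them.

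In the authors' group table, which has no replicates and no error, the contrasts were larger and partly different. ICAM1 was at 6.95 FPKM in NC and 39.4 in SI, a ratio of 5.66, and its NC value lay inside the range of the NC libraries (6.04 to 8.15 FPKM). TRAF1 had the largest ratio, 23.9, from 0.597 to 14.25 FPKM, its NC value lying under every NC library (2.88 to 3.52 FPKM). SOD2, nearly level between the libraries of both groups, was at 154 and 724 FPKM, a ratio of 4.69. IER3 was at 442 and 1605 FPKM, a ratio of 3.63. These 4 of the 10 genes had a ratio of at least 2, where 3.55% of 11361 genes with at least 1 FPKM did. ICAM1 is among these 4 and was chosen for its rise in the si-NEAT1_2 libraries, so its place in the count supports nothing. VCAM1 was the gene with a ratio of at least 2 in the other direction (14.3% of the genes), at 34.2 FPKM in NC and 12.9 in SI, although no library held more than 0.11 FPKM. The other 5 lay between: CD83 at a ratio of 1.75, TNIP1 at 1.67, CFLAR at 1.09, IRF1 at 0.939 and TNFAIP2 at 0.623. IRF1 and TNFAIP2 were thus lower in SI in the table and higher in the si-NEAT1_2 libraries, and CFLAR was the reverse. The NC value of the table lay inside the range of the NC libraries for 2 of the 10 genes, ICAM1 and CD83. The count columns of the table summed to 17678761 in NC and 19579897 in SI, each under the smallest library total of 22798631. How the table was made, and whether from these libraries, is not given in the sources used here and was not tested.

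Around these genes in the pathway, no list held a called gene, and the adjusted p of the genes named from them lay between 0.170 and 0.894 (edgeR's quasi-likelihood test, adjusted over all genes). Of the 8 NF-kB subunits and IKK genes, 2 were higher and 2 lower at an unadjusted p under 0.05, with a median log2 fold change of 0.16. Beside these and the counts of the other lists stand 11.2% of all genes higher and 12.9% lower at that p. The noncanonical subunits RELB (0.45) and NFKB2 (0.42) were highest in log2 fold change and REL (-0.73) lowest. Of 7 genes listed as feedback inhibitors or relatives of the inhibitor proteins, 2 were higher and 1 lower (median 0.29). NFKBIE was at 0.75, BCL3 at 0.36 and the deubiquitinase CYLD at -0.41. Among 11 tested receptors and adaptors upstream, 4 were higher and 0 lower (median 0.19), with CD40 at 0.38, LTBR at 0.37 and IL1RAP at -0.26. Of 11 other targets for adhesion, survival and signalling, 2 were higher and 2 lower (median 0.06), from the protease MMP9 at 1.25, which had at most 1 CPM, and PLAUR at 0.33 to the apoptosis inhibitor BIRC2 at -0.78. Of 11 chemokine and cytokine targets, 4 were higher and 0 lower (median 0.34), led by CSF2 at 1.19 and CCL2 at 0.77, with LIF lowest at 0.03. The median of the 9 genes tested here was 0.34, or 0.31 without ICAM1, which was chosen for its rise. Both were near that of the chemokine and cytokine targets, and the difference between lists was not tested.

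**Figure D4:**
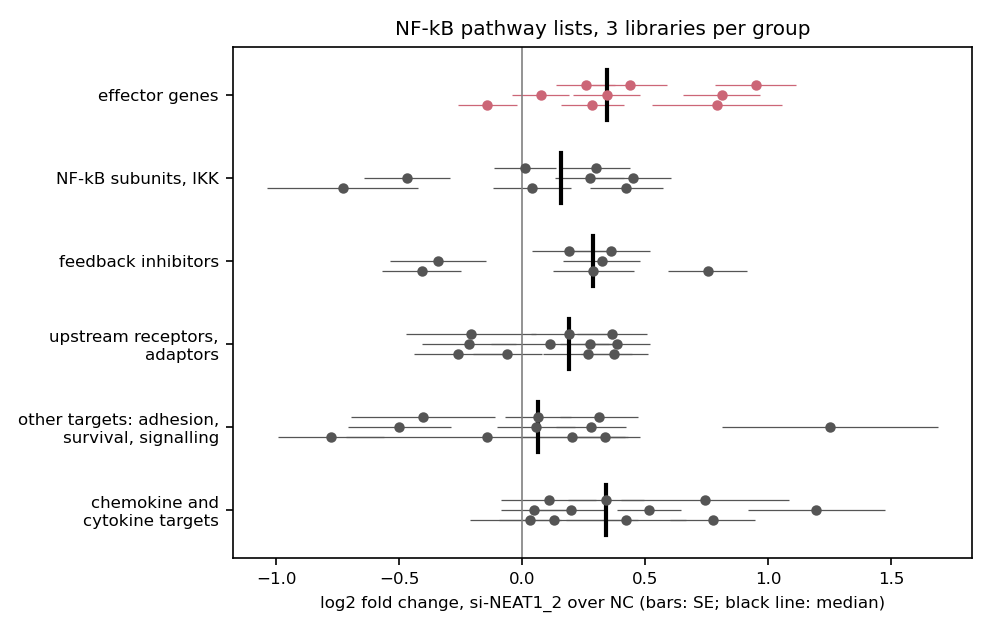
Log2 fold change of si-NEAT1_2 over NC (x axis) of each tested gene, by list, with bars for the standard error (3 libraries per group) and a black line at the median of the list. The medians lie between 0.06 and 0.34, and only the effector genes and the chemokine and cytokine targets have their median above 0.30. The median of the effector genes includes ICAM1, chosen for its rise, and is 0.31 without it.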

How the data were processed

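The authors enriched mRNA with oligo(dT), and their methods name TopHat2 2.1.1 for mapping and RSEM for quantification, while the submitters' processing notes name fastp 0.18.0, Bowtie2 2.2.8, HISAT2, StringTie 1.3.1 and GRCh38. The deposited expected counts are estimated per gene and library, without normalization between libraries (9.19% to 9.61% were not whole). The authors also deposited FPKM, scaled for length and depth, and a group table with both measures for NC and SI. No column of per-sample values was left unmapped (0).

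Expected counts were rounded, filtered with filterByExpr (13109 of 20522 rows kept), scaled by TMM and tested with edgeR 4.0.16 in R 4.3.3 over all rows. A call needed an adjusted p under 0.05 and a change of at least 2-fold. The test was checked on simulated data. Nothing states that the libraries came from separate cultures, so the p-values measure the spread between these libraries, which may be technical. The genes and lists were chosen with earlier results of these data known. All 10 genes were named, with the 2 highest and the lowest of each list reported, by log2 fold change, and the 5 genes most correlated with ICAM1. Alternatives were DESeq2 1.42.0, limma 3.58.1 on log2(FPKM + 1) or log2(FPKM + 0.1), other filters and scaling, a replicate block, the library code, leaving out each library, and GC and length trends (splines with 5 degrees of freedom). VCAM1 was compared on log2(CPM + 1).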

Additional observations from a re-analysis of the deposited data

Results flagged for a closer look

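VCAM1 stood out because its level in the authors' group table, 34.2 FPKM in the NC column, was more than 10 times its highest value in any of the 6 libraries (0.11 FPKM). It was 641 times the mean of the NC libraries. The SI column held 12.9 FPKM, beside at most 0.02 in the si-NEAT1_2 libraries. VCAM1 was not alone in this. In the NC column IL1B was at 1499.56 FPKM beside at most 2.49 in any library, and KRT19 at 29.8 beside at most 0.7. LUM lay the other way, at 0.43 beside at least 16.22, while ICAM1 and CD83 lay inside the range of the NC libraries. The table's values come with no replicate, and the cause of these differences was not tested.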

How the results depend on the processing

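The corrections for GC content and length were chosen with the data in view. The number of genes with an unadjusted p under 0.05 and a higher level, 5 as reported, was 2 with limma-trend on log2(FPKM + 1), 2 on log2(FPKM + 0.1), 2 with the trends of GC content and implied length removed, 3 with the replicate block, and 2 to 5 when each library was left out. The share of all genes higher at that p, 11.2% as reported, was 8.17%, 8.05%, 8.21%, 4.69% and 4.0% to 15.0% in the same fits. The median log2 fold change of 0.34 became 0.2155 with log2(FPKM + 1), 0.225 with log2(FPKM + 0.1), 0.44 when the library code was a covariate and 0.11 with GC content and implied length, and 0.29 to 0.44 when each library was left out. All these medians include ICAM1, which was chosen for its rise. Without si-NEAT1_2 replicate 1, 32 genes were called higher and 184 lower in all, none of them among the 8 genes other than ICAM1. Using the longest transcript for the GC and length trends reversed CFLAR to 0.27 and IER3 to -0.13, and the implied length reversed IER3 to -0.094. With the authors' FPKM, 0 genes had every si-NEAT1_2 library lower, in place of 1 (15.3% of all genes in FPKM). In that measure 4 genes, ICAM1 among them, had every si-NEAT1_2 library higher, in place of 6 (12.4% of all genes). With no filter on FPKM in the group table, 2 rows were lower by a ratio of at least 2, where 22.5% of 17220 genes were. The added one was the second SOD2 row, near the floor at 0.05 FPKM in NC and 0.007 in SI. Apart from the construction of each alternative, the cause was not tested. The methods speak of pairs of NC and si-NEAT1_2 samples without saying which libraries form a pair. Deviations of same-numbered libraries correlated at -0.28, -0.36 and -0.01, which gave no ground to pair them by number and does not show that they were prepared separately. Leaving out TMM shifted the median over all genes from 0.01 to -0.05. VCAM1 was limited by its 0 to 7 counts per library and by an exact permutation test whose p could not fall under 0.10.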

Other observations

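The closest relatives of the genes described were also read from the same fit, in which none was called and the adjusted p of those named lay between 0.170 and 0.910 (edgeR's quasi-likelihood test, adjusted over all genes). Of 6 tested IRF genes, IRF1 among them, 4 were higher at an unadjusted p under 0.05, IRF1 included. At that p, 11.2% of all genes were higher and 12.9% lower. The median log2 fold change of the IRF genes was 0.46, IRF9 at 0.64 and IRF5 at 0.58 being the highest and IRF2 at 0.11 the lowest. Of 7 TRAF genes, 3 were higher, TRAF1 included (median 0.21), with TRAF4 at 0.43 after TRAF1 and TRAF5 at -0.29. Besides ICAM1, ICAM3 had a log2 fold change of 0.49 and ICAM2 of 0.05, both at under 10 CPM in each library. TNIP2 was at 0.46, close to TNIP1, and TNIP3 at 0.39 with at most 0.756 CPM. Of 5 TNFAIP genes, TNFAIP2 among them, 0 passed an unadjusted p under 0.05 in edgeR's quasi-likelihood test. They ran from TNFAIP6 at 0.46 and TNFAIP8 at 0.32 to TNFAIP1 at 0.06. Among the superoxide dismutases, SOD3 was at 1.26 with at most 1 CPM, and the cytosolic SOD1 at 0.30.

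Around CFLAR, 3 of 8 death receptor genes were higher and 1 lower at an unadjusted p under 0.05 (median log2 fold change 0.02), with CASP10 at 0.61, FADD at 0.38 and the receptor FAS at -0.43. Over all genes, 11.2% were higher and 12.9% lower at that p. Of the integrin receptors and cytoskeletal linkers of ICAM1 and VCAM1, 5 were tested, of which 0 were higher and 2 lower (median -0.20), from ITGB2 at 0.11 and EZR at -0.06 to RDX at -0.69. RDX was at 89.8, 147 and 105 CPM in NC and 90.5, 52.0 and 69.2 CPM in si-NEAT1_2 replicates, so that its groups overlapped through replicate 1 of si-NEAT1_2.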
